A study of Mus musculus with 16 samples.

Results

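Clustered protocadherins are cell-surface adhesion proteins encoded by 3 neighbouring gene clusters, alpha, beta and gamma, and their members were found by gene symbol: Pcdha or Pcdhac, Pcdhb, and Pcdhga, Pcdhgb or Pcdhgc followed by a number. In the GENCODE M21 annotation 58 gene identifiers with 57 symbols met this rule, and 24 of these genes had a row among the 39179 genes of the count table. The 24 rows were all 22 beta genes, Pcdhb1 to Pcdhb22, and only 1 row each for the alpha cluster (Pcdha11, ENSMUSG00000007440) and the gamma cluster (Pcdhgc4, ENSMUSG00000023036). The other 34 genes, 13 alpha and 21 gamma genes including the C-type genes Pcdhac1, Pcdhac2, Pcdhgc3 and Pcdhgc5, have identifiers above the highest one in the table and were not analysed here. A second gene with the symbol Pcdha11 is among the 13 alpha genes. The 2 single rows are therefore called the alpha row and the gamma row, since the gene models behind them were not used here and the share of each cluster that they cover was not tested.

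RNA of brain cortex was sequenced from 16 mice on a C57BL/6 background, in 4 groups of 4 separate animals: MRPS5 WT at 3 months, MRPS5 V338Y at 3 months, MRPS5 WT at 19 months and MRPS5 V338Y at 19 months. The product of Mrps5 sits in the small subunit of mitochondrial ribosomes, and V338Y is a homozygous knock-in point mutation that makes this ribosome misread; a point mutation cannot be checked in gene counts. The labels list the tissue as brain yet mention muscle in the RNA extraction, whereas the methods name cortex.

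On mouse chromosome 18 (GRCm38), the beta genes lie side by side on the forward strand between 37264938 (start of Pcdhb1) and 37524479 (end of Pcdhb22), after the alpha row and before the gamma row. Each alpha or gamma protein is made from its own first exon, with its own promoter, spliced to a set of exons shared by the cluster that encode a common cytoplasmic tail. Beta genes carry no shared exon, and all 22 had a single exon here. A neuron switches on a small, largely random choice of these promoters, through DNA loops formed by CTCF and cohesin that bring a promoter to a distant enhancer, and the proteins on its surface then recognise identical proteins on other membranes. This recognition is known for self-avoidance of dendrites, for synapse formation and for neuron survival. The C-type genes, such as Pcdhgc4, are an exception in that many neurons express them without this random choice, and Pcdhgc4 is known for the survival of cortical interneurons.

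Reads can be assigned to single beta genes better than to single alpha or gamma genes. In M21, 2860 of the 5359 exon bases of Pcdha11 and 2119 of the 5596 exon bases of Pcdhgc4 were shared with other genes of the annotation. Among the beta genes, 7 of 22 shared any exact stretch of read length with another gene of the table, and the highest share of such stretches in a gene was 7.21%, in Pcdhb21. Pcdhb21 and its neighbour Pcdhb22 overlap by 455 bases on the same strand, so that reads of this overlap cannot be told apart and their values are uncertain to that extent.

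Total counts per mouse were between 6181448 and 19601664. Levels are given as CPM, counts relative to the TMM-scaled library size. Beta genes other than Pcdhb1 had between 20 and 680 counts in a mouse. The libraries differed by age in more than age. The study names all mice as female, yet the 3-month-old libraries had Ddx3y, a Y-linked gene, at 96.7 to 128 CPM and Xist, the RNA of the inactive X chromosome, at no more than 1.19 CPM, whereas the 19-month-old libraries had Ddx3y at 0 and Xist at 705 to 1182 CPM. Age and sex therefore cannot be told apart in the comparisons of 19 with 3 months, and each genotype comparison lies within 1 age. The titles of the 19-month-old samples also end in a letter, N, that no title at 3 months carries and that the labels do not explain, so that any difference in handling it may mark cannot be told apart from age. Cortical neuron markers such as Slc17a7 (433 to 560 CPM) were present in every mouse. The 13 cerebellum markers summed to between 1030 and 2561 CPM in 7 of the 8 mice at 3 months, to 304 CPM in mouse 14 of the 3-month-old V338Y group, and to between 200 and 232 CPM at 19 months. In bulk tissue, fewer cells of a type and less RNA per cell cannot be told apart.

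The 22 beta genes together made up a signal of the same order as the alpha and gamma rows. Their summed level was 243, 208, 223 and 232 CPM in the WT mice and 236, 237, 259 and 256 CPM in the V338Y mice at 3 months. It was 385, 429, 409 and 449 CPM in the WT mice and 358, 365, 353 and 345 CPM in the V338Y mice at 19 months. The old mice thus lay above the young mice without overlap in both genotypes, the genotypes overlapped in this sum at 3 months, and all 4 old V338Y mice lay below all 4 old WT mice. The mean beta sum was 1.84 times higher at 19 than at 3 months in WT mice and 1.44 times higher in V338Y mice. At 19 months the V338Y mean was 0.850 of the WT mean (355 ± 8.29 against 418 ± 27.6 CPM, SD, n = 4). No test was made on sums over the members.

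**Figure D1:**
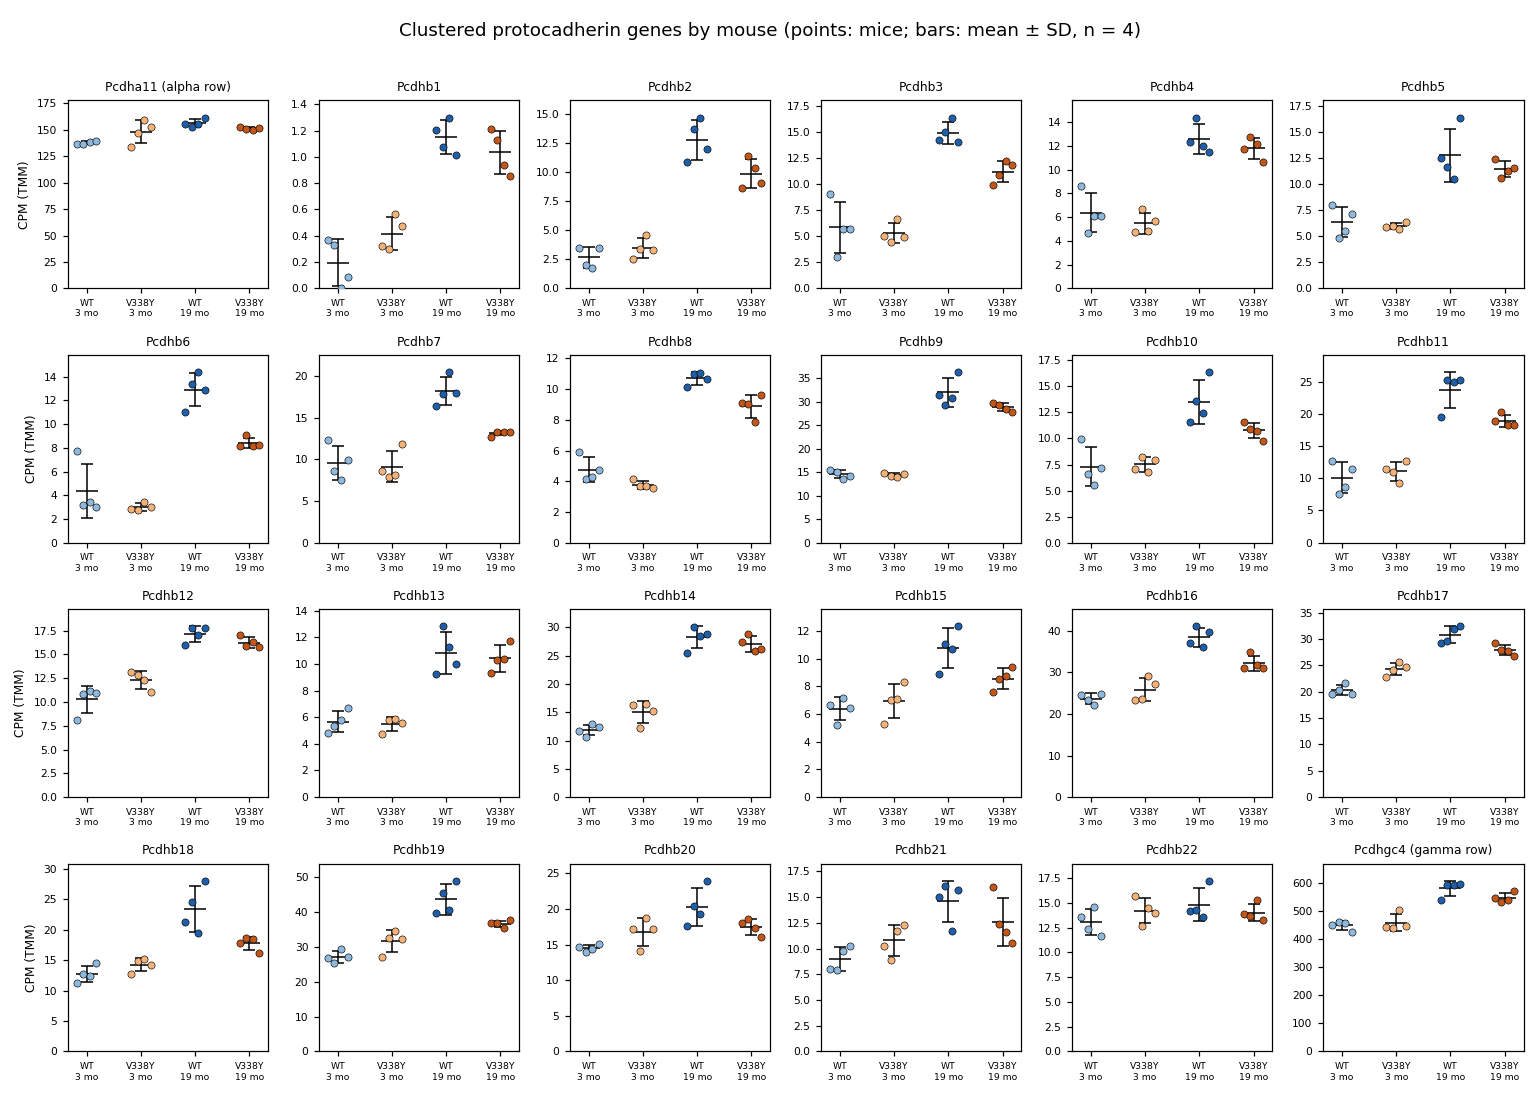
Level of each of the 24 genes in CPM (vertical axes, from 0) in 4 groups of 4 mice (horizontal axes), with 1 point per mouse and bars for the mean ± SD. Most beta genes stood higher at 19 than at 3 months, whereas Pcdhb22 overlapped between the ages in both genotypes.

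Per kb of exon, the 21 beta genes other than Pcdhb1 had mean levels from 2.24 (Pcdhb22) to 10.5 CPM per kb (Pcdhb9) in WT mice at 19 months. Pcdhb9 (SD 0.995, n = 4) was followed by Pcdhb16 (7.36 ± 0.449) and Pcdhb17 (6.62). Pcdhb1, at the upstream end of the beta cluster, was lowest (0.444 ± 0.0498) and rests on 6 to 15 counts in a mouse. At 3 months in WT mice the order at the top was Pcdhb9 (4.76 ± 0.274 CPM per kb), Pcdhb16 (4.54 ± 0.242) and Pcdhb17 (4.35), and the first pair differed by less than their SDs. In CPM, not divided by length, Pcdhb19 was the beta gene with the highest mean over the 16 mice. The alpha row was at 25.7 to 29.2 and the gamma row at 80.4 to 104 CPM per kb as means of the 4 groups, above every beta gene, by the exon lengths of the M21 genes of those names.

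**Figure D2:**
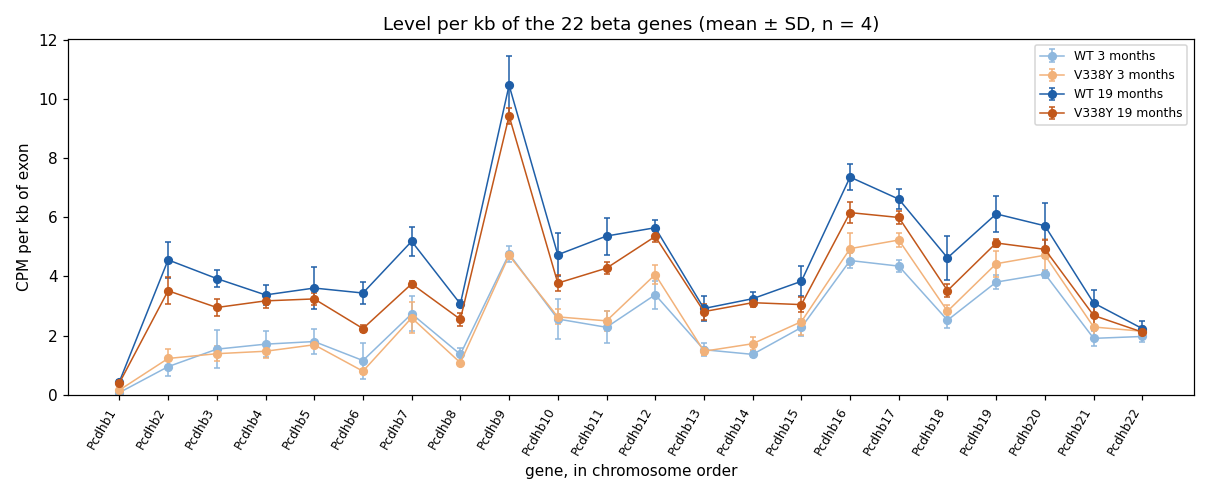
Mean level per kb of exon (vertical axis, CPM per kb, error bars SD, n = 4) of the 22 beta genes in chromosome order (horizontal axis), with 1 line per group. At 19 months Pcdhb9 stood at 10.5 CPM per kb in WT and 9.43 in V338Y mice, and the lines of the ages come together towards Pcdhb22.

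The first comparison asked what differed between 19 and 3 months in WT mice. The beta genes rose, those at the upstream end of the cluster by the most: Pcdhb2 was 4.97-fold and Pcdhb6 3.17-fold higher at 19 months, against 1.39-fold for Pcdhb20. Of the 24 members, 23 rose and none fell at an adjusted p under 0.05, and the exception was Pcdhb22. Over all 16101 genes tested, 31.4% rose and 31.5% fell. All 23 had groups that did not overlap, which held for 27.6% of all genes in this direction. The median log2 fold change of the members was 0.92, against -0.0050 for all genes tested, and 10 of 24 members rose by more than 1 on the log2 scale, as did 9.77% of all genes. Pcdhb1 passed the filter on low counts only through the old mice, where it had to be higher; without it, 22 of 23 members rose, 9 of them by more than 1 on the log2 scale.

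Pcdhb2 was at 3.45, 2.05, 1.77 and 3.44 CPM in the 3-month-old and at 10.9, 13.7, 14.7 and 12 CPM in the 19-month-old WT mice. Every old mouse was far above every young one, and the log2 fold change was 2.31 ± 0.17 (SE, adjusted p = 2.56e-12). Pcdhb6 was at 7.76, 3.17, 3.46 and 3.01 CPM in the young and at 11, 13.4, 14.4 and 12.8 CPM in the old WT mice, with a log2 fold change of 1.66 ± 0.25 (adjusted p = 1.35e-04). Here mouse 9 stood apart from the other young mice but still below every old mouse. Pcdhb9, the highest beta gene per kb, was at 15.5, 14.9, 13.6 and 14.1 CPM in the young and at 31.4, 29.3, 30.9 and 36.3 CPM in the old WT mice. Its mice lay close together within each age, and its log2 fold change was 1.13 ± 0.08 (adjusted p = 4.25e-13).

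Pcdhb19, the beta gene with the most counts, was at 26.7, 25.4, 29.5 and 27.1 CPM in the young and at 39.6, 45.5, 40.5 and 49 CPM in the old WT mice. The groups did not overlap, and the log2 fold change was 0.68 ± 0.07 (adjusted p = 2.22e-09). Pcdhb14, among the genes of the downstream part of the cluster, had the larger change of 1.26 ± 0.09 (adjusted p = 1.25e-13), from 11.7, 10.7, 12.9 and 12.3 CPM to 25.5, 30.1, 28.5 and 28.9 CPM. Pcdhb22, the most downstream beta gene, was at 13.6, 12.4, 14.6 and 11.6 CPM in the young and at 14.2, 14.2, 13.5 and 17.2 CPM in the old WT mice. Its groups overlapped, and the log2 fold change of 0.18 ± 0.10 did not pass the test (adjusted p = 0.128).

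Pcdhb1 had 0 to 5 counts in a young and 6 to 15 counts in an old WT mouse. Its levels of 0.370, 0.331, 0 and 0.0860 CPM in the young mice rest on these few reads, and those of the old mice were 1.21, 1.08, 1.30 and 1.01 CPM. The groups did not overlap, and the fitted log2 fold change of 2.51 ± 0.49 depends on the prior count.

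The alpha and gamma rows rose by less than every beta gene but Pcdhb22 in WT mice. The gamma row was at 452, 462, 458 and 427 CPM in the young and at 541, 593, 594 and 599 CPM in the old mice, without overlap, a log2 fold change of 0.38 ± 0.04 (adjusted p = 2.85e-09). The alpha row was at 136, 137, 139 and 139 CPM in the young and at 155, 153, 155 and 162 CPM in the old mice, also without overlap, a log2 fold change of 0.19 ± 0.04 (adjusted p = 3.25e-04). With library size alone as the scaling, the call of the alpha row was lost (log2 fold change 0.096, adjusted p = 0.0576).

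The same question in V338Y mice gave smaller changes of the same sign at most genes. Of the 24 members 19 rose and none fell, against 23.1% of the 16770 genes tested that rose and 25.7% that fell, and 18 of 24 had groups without overlap in this direction, against 21.5% of all genes. The median log2 fold change was 0.51 for the members and -0.029 for all genes tested, and 6 of 24 members rose by more than 1 on the log2 scale, against 8.40% of all genes. Pcdhb1 again passed the filter on low counts only through the old mice; without it, 18 of 23 members rose, 17 of them without overlap, and 5 of 23 rose by more than 1. The 5 members that did not pass the test were the alpha row and, at the downstream end of the beta cluster, Pcdhb15, Pcdhb20, Pcdhb21 and Pcdhb22. All 19 that rose in V338Y mice had also risen in WT mice, but 23 of the 24 had risen there, so this overlap was nearly fixed in advance. The 2 comparisons share no mice, yet in both the ages also differed in sex-linked transcripts, sample titles and cerebellum markers.

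Pcdhb2 was at 2.55, 3.37, 4.64 and 3.27 CPM in the young and at 8.68, 11.5, 10.4 and 9.06 CPM in the old V338Y mice. The groups did not overlap, and its log2 fold change of 1.52 ± 0.17 was the largest of the members in this genotype (adjusted p = 1.41e-05). Pcdhb6 was at 2.81, 2.72, 3.44 and 3.03 CPM in the young and at 8.17, 9.06, 8.14 and 8.26 CPM in the old V338Y mice, a log2 fold change of 1.48 ± 0.12 (adjusted p = 1.23e-06). No young V338Y mouse stood apart as mouse 9 did among the WT mice. Pcdhb1 was at 0.319, 0.302, 0.562 and 0.475 CPM in the young and at 1.21, 1.13, 0.940 and 0.857 CPM in the old V338Y mice, from 5 to 8 counts in a young and 12 to 18 in an old mouse, with a fitted log2 fold change of 1.30 ± 0.31 that rests on these few reads.

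Pcdhb19 was at 27.2, 32.4, 34.6 and 32.4 CPM in the young and at 36.7, 36.8, 35.5 and 37.6 CPM in the old V338Y mice. The groups did not overlap in these values scaled over all 16 mice, but did in those scaled within the comparison, and the log2 fold change of 0.20 ± 0.08 lay at the threshold (adjusted p = 0.0491). Its call was lost in 10 of the 18 alternative settings, and that of Pcdhb17 (log2 fold change 0.19 ± 0.07, adjusted p = 0.0368) in 9 of them. The gamma row was at 443, 441, 506 and 447 CPM in the young and at 549, 532, 541 and 572 CPM in the old V338Y mice, without overlap, a log2 fold change of 0.25 ± 0.07 (adjusted p = 7.75e-03). The alpha row was at 134, 147, 159 and 152 CPM in the young and at 153, 151, 150 and 152 CPM in the old V338Y mice. Its young mice spread around the old ones, and the log2 fold change was 0.024 ± 0.064 (adjusted p = 0.782), or -0.035 with library size alone.

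**Figure D3:**
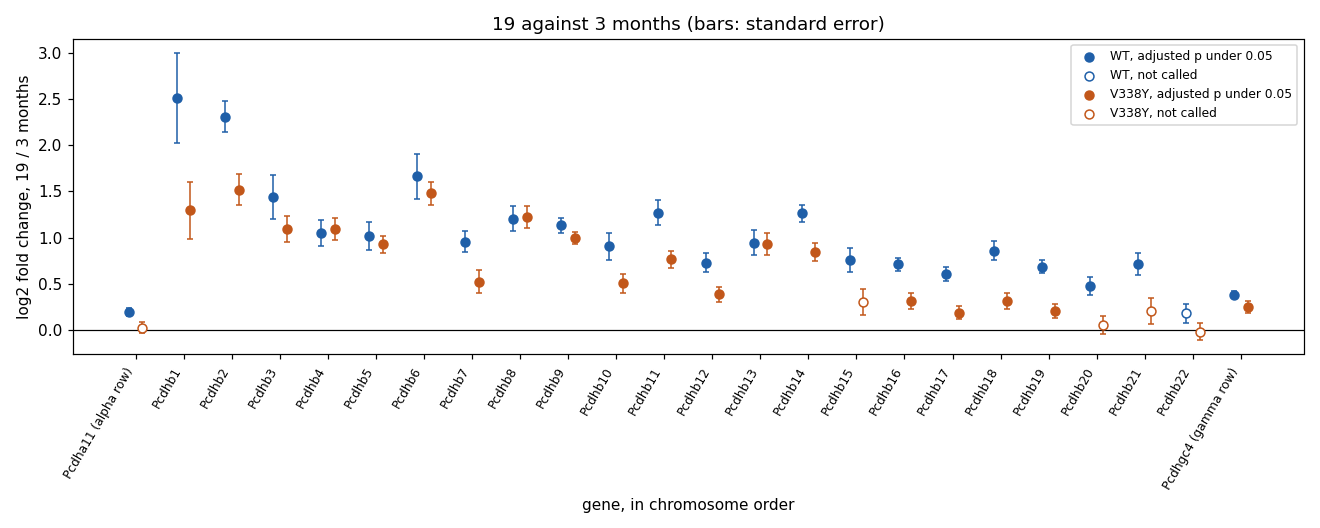
Log2 fold change of 19 against 3 months (vertical axis, error bars SE) for the 24 genes in chromosome order (horizontal axis) in WT and V338Y mice, with filled points for an adjusted p under 0.05. The points fall unevenly from Pcdhb2 (2.31 in WT, 1.52 in V338Y) to Pcdhb22 (0.18 and -0.022), and Pcdhb14 stands out above its neighbours in WT (1.26).

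Within the beta cluster the change with age followed the order of the genes along the chromosome. Over the 22 beta genes, the rank correlation between position and log2 fold change was -0.86 in WT and -0.90 in V338Y mice (Spearman's rho, Pearson's r -0.80 and -0.88), and -0.84 and -0.90 over the 21 genes without Pcdhb1. The changes of the genes in the 2 genotypes were ranked alike, with a rho of 0.93 over 22 genes. For comparison, the rho of the log2 fold change with GC content was 0.32 in WT and 0.44 in V338Y mice, with exon length -0.37 and -0.44, and with the mean level per kb -0.49 and -0.50. These are descriptions across genes that share libraries and neighbours, and genes are not replicates.

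Split into the first and the last 11 beta genes, a split chosen after the values were seen, the first 11 all rose in both genotypes, with a median log2 fold change of 1.21 in WT and 1.09 in V338Y mice, or 1.17 and 1.04 over the 10 genes without Pcdhb1. Of the last 11, 10 rose in WT and 7 in V338Y mice, with a median log2 fold change of 0.71 and 0.30. The sum of Pcdhb1 to Pcdhb11 was 93.6, 59.9, 62.1 and 72.8 CPM in the WT and 67.3, 68.4, 67.7 and 74.3 CPM in the V338Y mice at 3 months. It was 151, 166, 169 and 174 CPM in the WT and 134, 139, 134 and 131 CPM in the V338Y mice at 19 months. No mouse of either age reached the range of the other age. The sum of Pcdhb12 to Pcdhb22 was 150, 148, 161 and 159 CPM in the WT and 169, 169, 191 and 182 CPM in the V338Y mice at 3 months. In this sum every young V338Y mouse already lay above every young WT mouse, with a mean 1.15 times the WT mean. At 19 months it was 234, 263, 240 and 275 CPM in the WT and 224, 226, 219 and 214 CPM in the V338Y mice. The V338Y mice were then all below the WT mice, and the mean was 1.64 times that at 3 months in WT and 1.24 times in V338Y mice. Pcdhb1 to Pcdhb11 made up 31.6% of the beta sum in young and 39.5% in old WT mice, and 28.1% in young and 37.8% in old V338Y mice (means of 4).

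Mouse 9 of the young WT group was the highest of its group in 11 of the first 11 beta genes and in 0 of the last 11. It had the smallest total of its group and the lowest sum of cerebellum markers (1030 CPM, against 1426 to 1665 CPM in the others), whose part in its values was not tested. Without mouse 9, 23 of 24 members rose in WT mice, as with it, against 31.2% of all genes.

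Several cell type markers moved with the age groups. Of the cerebellum markers, 13 of 13 were lower in old WT and 12 of 13 in old V338Y mice. Mouse 14 had far fewer of these transcripts than the other young V338Y mice. Its beta sum of 237 CPM lay between those of the others (236 to 259 CPM), as did its sum of Pcdhb1 to Pcdhb11 (68.4 CPM, against 67.3 to 74.3 CPM). Mouse 9, lowest in cerebellum markers among the young WT mice, had the highest sum of Pcdhb1 to Pcdhb11 of its group (93.6 CPM). These are single mice, and the part of cerebellar transcripts in the beta levels was not tested. With a cerebellum marker score added to the fit, 15 of 24 members were called higher in V338Y mice, against 14.7% of all genes in that fit. Of the 19 that rose without the score 14 were among them. Pcdhb10, Pcdhb12, Pcdhb17, Pcdhb18 and Pcdhb19 lost their call, and Pcdhb20 gained one. The score was 2.60 in mouse 14, 6.41 to 6.91 in the other young and 1.57 to 1.93 in the old V338Y mice. The separation of score from age in this fit thus rests mainly on mouse 14. Without mouse 14 and without the score, 19 of 24 members rose in V338Y mice, as with this mouse, against 24.4% of all genes. At 3 months none was then called between the genotypes. In WT mice none was called with the score in the fit, and 9 beta genes turned negative, but there the score separates the ages (5.68 to 6.36 against 1.23 to 1.58, mean log2 CPM) and only 50 of all 16101 genes were called higher and 51 lower. Endothelial markers were higher at 19 months in 8 of 8 genes in both genotypes (summed level 234 to 254 CPM in young and 1021 to 1192 CPM in old mice), meningeal markers in 9 of 9, microglial markers in 10 of 10 and astrocyte markers in 8 of 10. Oligodendrocyte markers were higher in 6 of 10 genes in WT and 5 of 10 in V338Y mice (summed level 4343 to 4811 CPM in young and 6593 to 6930 CPM in old WT mice), and those of their precursors in 4 of 6 in both. In WT mice 1 oligodendrocyte and 1 precursor marker were lower, and in V338Y mice none was. Olfactory bulb and neurogenic markers were lower in 5 of 6 genes in both genotypes (median log2 fold change -1.39 and -1.27). Striatal markers were lower in 3 of 8 genes in WT mice, with 1 higher, and in 5 of 8 in V338Y mice. The part of these cell types in the protocadherin changes was not tested. Of the 10 general neuron markers, 8 were lower in old WT and 7 in old V338Y mice, with 1 higher in each. Of the 10 cortical neuron markers, 3 were higher and 1 lower in old WT mice, and 3 higher and 2 lower in old V338Y mice.

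**Figure D4:**
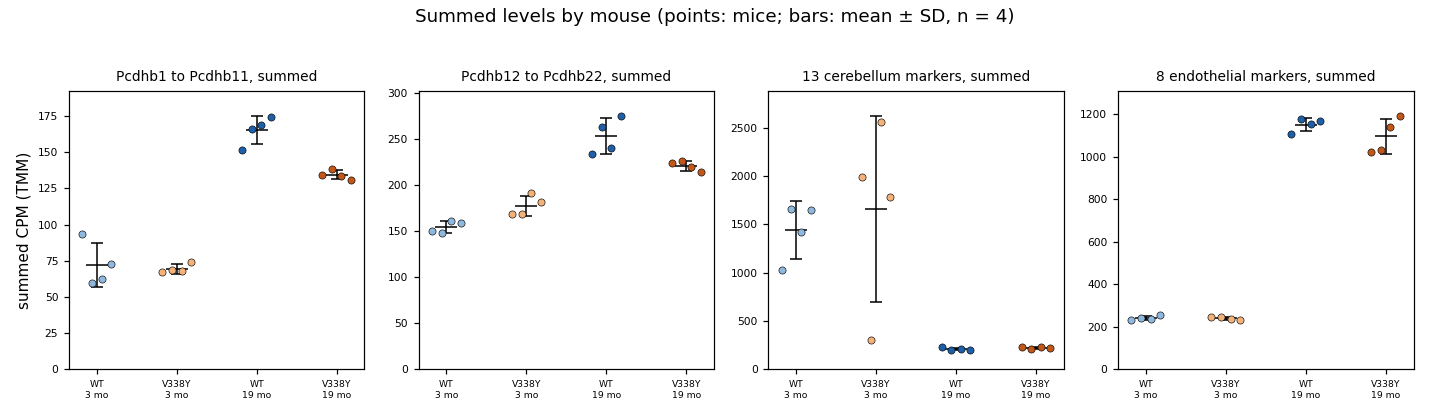
Summed levels in CPM (vertical axes, from 0) by mouse in the 4 groups (horizontal axes), with bars for the mean ± SD, for Pcdhb1 to Pcdhb11, Pcdhb12 to Pcdhb22, 13 cerebellum markers and 8 endothelial markers. Mouse 14 of the young V338Y group had 304 CPM of cerebellum markers, close to the old mice, and 68.4 CPM of Pcdhb1 to Pcdhb11, close to the other young mice.

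At 3 months the genotypes did not differ in any member at the test's threshold. With Pcdhb1 left out by the filter on low counts, 0 of 23 members were called by edgeR and 0 by DESeq2, against 0.0616% and 0.16% of the 16241 genes tested. At an unadjusted p under 0.05 there were 4 of 23 (Pcdhb12, Pcdhb14, Pcdhb17 and Pcdhb19, all higher in V338Y mice), against 5.02% of all genes. Pcdhb17 was at 19.6, 20.4, 21.6 and 19.5 CPM in the WT and at 22.9, 24.2, 25.7 and 24.7 CPM in the V338Y mice. Every V338Y mouse was higher, which held for 1.5% of all genes, but the log2 fold change of 0.27 ± 0.08 did not pass the test (adjusted p = 0.848). Pcdhb8 was lower in every V338Y mouse (4.15, 3.68, 3.72 and 3.56 CPM against 5.91, 4.16, 4.25 and 4.73 CPM), as were 1.82% of all genes, with a log2 fold change of -0.31 ± 0.16 (adjusted p = 0.926). Pcdhb14 had a log2 fold change of 0.34 ± 0.11 (adjusted p = 0.926). The alpha row (0.11 ± 0.06) and the gamma row (0.038 ± 0.064) did not pass the test either.

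At 19 months, 7 of 24 members were lower in V338Y than in WT mice and none was higher. These were the beta genes Pcdhb3, Pcdhb6, Pcdhb7, Pcdhb11, Pcdhb16, Pcdhb18 and Pcdhb19, with log2 fold changes from -0.61 to -0.24, against 1.92% of all 16420 genes that were lower and 1.19% that were higher. All 24 members had a negative log2 fold change, with a median of -0.22, against -0.00072 for all genes tested, of which 49.7% were positive. The groups did not overlap, with V338Y lower, in 7 members, the called genes without Pcdhb11 and with Pcdhb8, against 4.9% of all genes. The count of 7 depended on single mice: it was 3 without WT mouse 13, 3 without WT mouse 15 and 4 without V338Y mouse 19 (1.15%, 1.41% and 1.18% of all genes). It was 0 in a fit of all 16 mice, where 0.56% of all genes were lower, and 0 with the cerebellum score in the fit, where 0.396% were. The median log2 fold change of the members was -0.21 with all 16 mice and -0.24 with the score, and Pcdhb6 was at -0.61 ± 0.18 and -0.49 ± 0.18. At 19 months the score nearly separated the genotypes (1.23 to 1.58 in WT and 1.57 to 1.93 in V338Y mice, mean log2 CPM). The median SE of the members was 0.150 with the score and 0.089 without it. Score and genotype can thus hardly be told apart in that fit.

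Pcdhb6 changed most, from 11, 13.4, 14.4 and 12.8 CPM in the WT to 8.17, 9.06, 8.14 and 8.26 CPM in the V338Y mice at 19 months. No value of the 2 groups overlapped, and the log2 fold change was -0.61 ± 0.10 (adjusted p = 3.20e-04). Pcdhb7 was at 16.4, 17.9, 20.5 and 17.9 CPM in the WT and at 12.7, 13.3, 13.2 and 13.3 CPM in the V338Y mice. The V338Y mice were nearly equal and all lower, with a log2 fold change of -0.46 ± 0.08 (adjusted p = 9.85e-04). Pcdhb3 was at 14.2, 15, 16.4 and 14 CPM in the WT and at 9.89, 10.9, 12.2 and 11.8 CPM in the V338Y mice, a log2 fold change of -0.40 ± 0.09 (adjusted p = 0.0112).

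Pcdhb18 was at 21.3, 24.6, 19.5 and 28 CPM in the WT and at 17.9, 18.6, 18.4 and 16.2 CPM in the V338Y mice. The WT mice were more widely spread than the V338Y mice, and the log2 fold change was -0.37 ± 0.09 (adjusted p = 0.0145). Pcdhb11 was at 19.6, 25.2, 24.9 and 25.2 CPM in the WT and at 18.9, 20.2, 18.3 and 18.3 CPM in the V338Y mice. WT mouse 12 lay within the range of the V338Y mice, and the log2 fold change was -0.32 ± 0.08 (adjusted p = 0.0237). Pcdhb16 was at 37, 41.1, 36.1 and 39.7 CPM in the WT and at 31, 34.9, 31.9 and 31 CPM in the V338Y mice, a log2 fold change of -0.25 ± 0.06 (adjusted p = 0.0173). Pcdhb19 was at 39.6, 45.5, 40.5 and 49 CPM in the WT and at 36.7, 36.8, 35.5 and 37.6 CPM in the V338Y mice, a log2 fold change of -0.24 ± 0.06 (adjusted p = 0.0262).

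The alpha row (log2 fold change -0.042 ± 0.038, adjusted p = 0.634) and the gamma row (-0.085 ± 0.040, adjusted p = 0.282) were not called at 19 months, and their mice overlapped. Pcdhb1 was not called either (-0.19 ± 0.28, adjusted p = 0.807), with 6 to 18 counts in a mouse. In contrast to the age comparisons, the genotype difference did not follow the order of the beta genes closely (rho 0.27 over 22 genes).

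**Figure D5:**
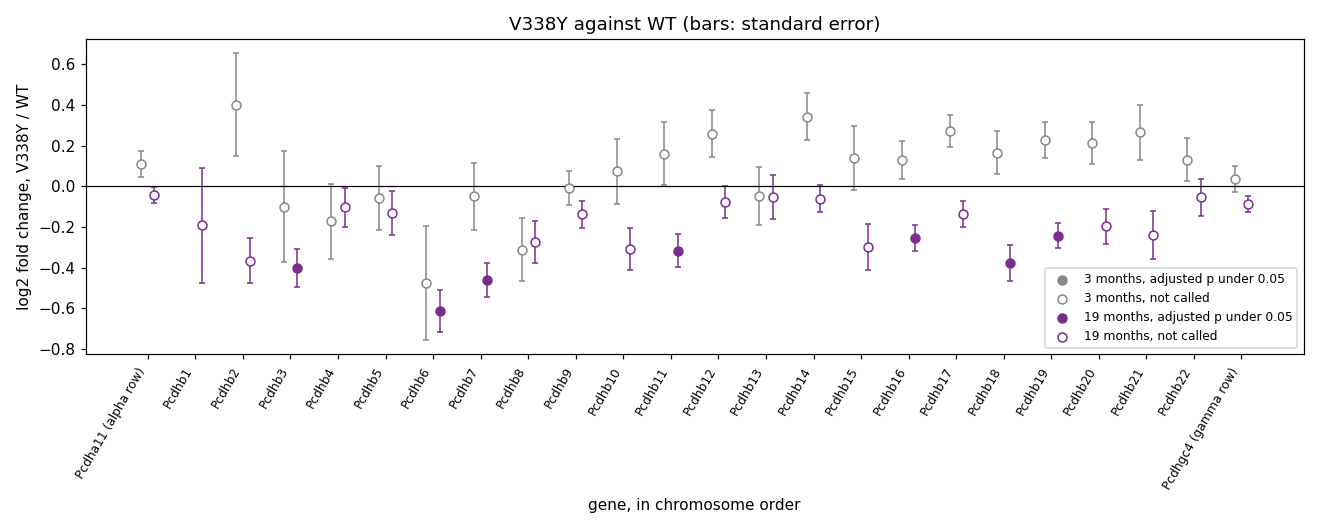
Log2 fold change of V338Y against WT mice (vertical axis, error bars SE) at 3 and at 19 months for the genes in chromosome order (horizontal axis), with filled points for an adjusted p under 0.05; Pcdhb1 was not tested at 3 months. At 19 months all 24 points lie below 0, and the 7 filled ones run from -0.61 (Pcdhb6) to -0.24 (Pcdhb19).

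Markers of other cell types also differed between the genotypes at 19 months. Of the 10 microglial markers 3 were lower in V338Y mice (summed level 682 to 736 against 761 to 792 CPM), and of the 9 meningeal markers 3 were lower and 1 was higher (1511 to 2156 against 1930 to 2520 CPM). None of the 8 endothelial markers was called (1021 to 1192 against 1106 to 1180 CPM). Muscle markers summed to 16.3 to 132 CPM in V338Y and 6.86 to 8.45 CPM in WT mice, with none of 6 called. Choroid plexus markers ranged from 164 to 2365 CPM in V338Y and from 240 to 1025 CPM in WT mice, with none of 8 called. The part of these cells in the protocadherin differences was not tested.

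Whether the change with age differed between the genotypes was tested as an interaction over all 16 mice. Of the 24 members 0 were called by edgeR and 0 by DESeq2, against 0.0535% and 0.255% of the 16831 genes tested. At an unadjusted p under 0.05 there were 13 of 24 members, against 10.2% of all genes, 9 of them among Pcdhb12 to Pcdhb22. The estimate was negative, a smaller rise in V338Y mice, for 21 of 24 members, with a median of -0.38 on the log2 scale. Over all genes tested the median was 0.0021, and 50.6% of the estimates were positive. Of Pcdhb12 to Pcdhb22, 10 of 11 had a positive V338Y against WT estimate at 3 months, with 0 called, so their young V338Y values enter this difference. The lowest adjusted p was 0.124, for Pcdhb17 (-0.40 ± 0.09) and Pcdhb19 (-0.46 ± 0.11). Pcdhb18 (-0.54 ± 0.14, adjusted p = 0.187) and Pcdhb16 (-0.38 ± 0.11, adjusted p = 0.238) followed, and Pcdhb2 had a larger estimate with a larger error (-0.77 ± 0.27, adjusted p = 0.335). A difference in the age effect was thus not shown for any single member in this fit. This test shares its mice with the comparisons above.

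Protocadherins outside the clusters and classical cadherins, related adhesion molecules, moved in both directions with age, more of them up than down. For comparison, 31.4% of all genes rose and 31.5% fell in WT mice, and 23.1% rose and 25.7% fell in V338Y mice. Of 13 non-clustered protocadherins tested, 8 rose and 2 fell in WT mice and 7 rose and 2 fell in V338Y mice. The largest of these changes was the rise of Pcdh12, a protocadherin of endothelial cells, with a log2 fold change of 2.02 ± 0.36 in WT and 1.83 ± 0.24 in V338Y mice. Cdhr1, a photoreceptor and olfactory bulb cadherin and itself among the olfactory bulb markers, fell by 1.35 and 1.36 on the log2 scale. Pcdh18 rose by 0.67 and 0.59. Of 17 classical and related cadherins, 8 rose and 3 fell in WT and 4 rose and 3 fell in V338Y mice, led by Cdh5, the cadherin of endothelial junctions and itself among the endothelial markers (2.32 ± 0.09 and 2.25 ± 0.09). Between the genotypes at 19 months, only Pcdh15 of the hair cell tip link (-0.24 ± 0.06, adjusted p = 0.0261) and Cdh1, the epithelial cadherin (-0.54 ± 0.13, adjusted p = 0.0188), were called among the 30 genes of these lists that were tested.

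Of 16 tested genes of other families beside the clusters, 2 rose and 9 fell in WT and 2 rose and 7 fell in V338Y mice with age, with 31.5% and 25.7% of all genes falling. The 2 that rose were Arap3, a GTPase-activating protein (1.88 ± 0.09 and 1.75 ± 0.11), and Diaph1, an actin-nucleating formin (0.67 ± 0.06 and 0.61 ± 0.09). Taf7, a subunit of the general transcription factor TFIID, fell by 0.36 in WT and 0.43 in V338Y mice on the log2 scale. None of the 16 was called between the genotypes at 19 months.

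Of 25 regulators known to act on the protocadherin promoters, 8 rose and 6 fell in WT mice with age, and 1 rose and 5 fell in V338Y mice. Of all genes tested, 31.4% rose and 31.5% fell in WT and 23.1% rose and 25.7% fell in V338Y mice. Ctcf, which anchors the promoter loops, fell by 0.32 and 0.26 on the log2 scale (adjusted p = 2.51e-06 and 6.75e-03). Trim28, a corepressor of gene silencing, fell by 0.46 and 0.40. At 19 months only Tet2, a DNA demethylase, was called between the genotypes, lower in V338Y mice (-0.26 ± 0.06, adjusted p = 6.54e-03).

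The shares of all genes that rose and fell with age, 31.4% and 31.5% in WT and 23.1% and 25.7% in V338Y mice, apply here too. Among 20 tested genes for partners and downstream effectors of these proteins, 8 rose and 10 fell in WT mice with age. In V338Y mice 3 rose and 7 fell, and none was called between the genotypes at 19 months. Wasf2, a subunit of the WAVE complex that drives actin branching, rose most (1.22 ± 0.09 and 0.87 ± 0.12), and Brk1 of the same complex fell by 0.42 and 0.47 on the log2 scale. Of 7 genes for the proteases that cut clustered protocadherins, 3 rose in both genotypes and none fell. Adam10, which sheds the outer domain, rose by 0.45 ± 0.05 and 0.27 ± 0.08 on the log2 scale. Ncstn, a gamma-secretase subunit, rose by 0.41 and 0.26 and was lower in V338Y than in WT mice at 19 months (-0.24 ± 0.05, adjusted p = 7.57e-03). At 3 months none of the genes of these 6 lists was called between the genotypes.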

How the data were processed

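Cortex RNA of 16 mice was measured by single-end sequencing. The authors deposited an estimated count for each gene, made from aligned reads without normalization; the values are whole numbers of at most 4 significant digits. The paper names RSEM, Ensembl 75 and GRCm37, whereas the submitters' processing notes list STAR 2.4.2a, featureCounts, bcl2fastq 1.8.4 and GRCm38; which of them made the table is not given in the sources used here, and this could change counts of similar genes. Symbols, lengths and positions were taken from GENCODE M21 (GRCm38) by Ensembl identifier.

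A gene was kept when 2 or more of the 4 mice of a group had 10 or more counts. All genes kept entered the robust quasi-likelihood fit of edgeR 4.0.16 (limma 3.58.1, R 4.3.3) after TMM scaling, with Benjamini-Hochberg adjustment over all of them at 0.05. Each pairwise fit held the 8 mice compared, and the interaction fit all 16. Fold changes used the default prior count of edgeR, and the log2 CPM of the cerebellum marker score used a prior count of 2. Groups came from the sample labels. Alternatives were the likelihood-ratio test, DESeq2 1.42.0, RLE factors, library size only, other count filters, removal of length and GC trends, thinning to 6181448 counts, the cerebellum marker score (mean log2 CPM of 9 genes) as a covariate, 1 fit for all 16 mice, and omission of each mouse in turn. Steps were tested on simulated data.

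Members and gene lists were chosen with earlier results of these data known. Named by rule were Pcdhb1, the C-type genes, the highest gene of each cluster, the called members with the largest rise or fall, every called member of a comparison with 10 or fewer of them, and of each other list up to 3 called genes of largest change; other genes were named after their values were seen. The result of 1 listed gene that this rule would name is not reported here. Groups of mice were compared for repeated libraries, and none was found.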

Additional observations from a re-analysis of the deposited data

Results flagged for a closer look

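In groups of 4 mice, a value was taken as far from the others when its gap to the nearest mouse exceeded Dixon's 95% critical share of the range of the group. This held for 6 of 100 groups examined (24 genes and the beta sum in 4 groups), and chance gives about 1 in 20. Pcdhb6 was at 7.76 CPM in WT mouse 9 at 3 months, against 3.01 to 3.46 CPM in the other 3 mice, and Pcdhb12 was at 8.13 CPM in the same mouse, against 10.8 to 11.2 CPM. Pcdhb6 was also at 9.06 CPM in V338Y mouse 18 at 19 months, against 8.14 to 8.26 CPM. WT mouse 12 at 19 months was low for Pcdhb11, at 19.6 CPM against 24.9 to 25.2 CPM, and for the gamma row (Pcdhgc4), at 541 CPM against 593 to 599 CPM. The gamma row (Pcdhgc4) was at 506 CPM in V338Y mouse 15 at 3 months, against 441 to 447 CPM. No member passed the interaction test of age and genotype.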

How the results depend on the processing

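No paired analysis was possible because the groups compared share fewer than 2 mouse numbers and hold different mice. The number of members that rose in WT mice with age was 22 or 23 in every setting but the cerebellum covariate, where it was 0; there the score follows age almost completely, the median SE of the members was 1.38, and the log2 fold change was -3.22 for Pcdhb1, -1.09 for Pcdhb2, -5.25 for Pcdhb3, -3.22 for Pcdhb4, -6.17 for Pcdhb6, -2.21 for Pcdhb7, -1.40 for Pcdhb8, -1.36 for Pcdhb10 and -1.30 for Pcdhb11. In V338Y mice 15 (this covariate) to 20 members rose. Uncalled members near 0 changed sign there: the alpha row (Pcdha11) was at -0.035 with library size only, Pcdhb20 at -0.0070 with library size only, and Pcdhb22 at 0.041 after thinning and 0.20 with the covariate. Without single mice the log2 fold change was between -0.012 and 0.070 for the alpha row, -0.019 and 0.12 for Pcdhb20 and -0.070 and 0.037 for Pcdhb22; at 3 months, between the genotypes, it was between -0.023 and 0.062 for the gamma row (Pcdhgc4).

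The 7 members lower in V338Y mice at 19 months became 0 with the covariate, whose score nearly separated the genotypes there. They were also 0 in the fit of all 16 mice. Without single mice they were between 3 and 10, and 1.15% to 2.31% of all genes were lower. The cause was not tested. In the interaction 3 members were called lower with the covariate, against 0.517% of all genes. Without single mice 0 or 1 was called lower, against at most 0.245% of all genes. At 3 months none was called between the genotypes in any setting. With library size only, 39.8% of all calls of the WT age comparison were rises, against 49.9% with TMM, and 57.6% against 38.3% in the genotype comparison at 19 months, while the members called kept 1 direction. The mean of the alpha row was then 141, 151 and 149 CPM in young WT, old WT and old V338Y mice. Per kb of exon that no other gene shares, the alpha row was at 59.4 and the gamma row at 147 CPM, against 27.7 and 91.1. Depth limits Pcdhb1 most, with at most 18 counts in a mouse.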
